A study of Mus musculus with 6 samples.

Results

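Inflammasomes are protein complexes of the cytosol that sense microbial products or cell damage. A sensor of the NOD-like receptor family, such as NLRP3 or NLRC4, or the DNA sensor AIM2 assembles with the adaptor ASC and recruits caspase-1, which matures interleukin-1β and interleukin-18 and cleaves gasdermin D into a protein that forms pores in the plasma membrane. Caspase-4, known in mice as caspase-11, binds bacterial lipopolysaccharide and cleaves gasdermin D as well, while NOD1 and NOD2 bind fragments of bacterial peptidoglycan and signal through the kinase RIPK2 to NF-κB. Most of these genes are best known from macrophages and other myeloid cells, and some are also active in epithelia.

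The levels of 10 such genes were followed in subcutaneous H22 tumours of mice given luteolin or its vehicle. They are the sensors Nlrp3, Nlrc4, Naip5 and Aim2, the receptors Nod1 and Nod2, the adaptor gene Pycard, the caspase genes Casp1 and Casp4 and the gasdermin gene Gsdmd. They were chosen by name for their roles, with earlier results of these data known. All 10 were found by symbol among the 21720 genes of the deposited table. They passed the filter on low counts, which 14963 genes passed. H22 is a mouse hepatocellular carcinoma line. It was injected under the skin of female BALB/c mice aged 6 to 8 weeks, and every sample is labelled as wild type. The control group received 0.5% carboxymethyl cellulose sodium and the luteolin group 200 mg/kg luteolin, a plant flavonoid, by gavage in 0.2 mL once a day for 21 days. Treatment began when tumours had reached about 50 mm3. Each group gave 3 libraries of whole tumour tissue, numbered 1 to 3 within its group as in the labels. The labels do not say whether each library came from its own mouse, so that p values measure the spread between these libraries, which may be partly technical. Totals were 69391357, 66256017 and 66655030 counts in control replicates 1, 2 and 3 and 61081637, 80442954 and 63965501 counts in luteolin replicates 1, 2 and 3.

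The tumours expressed Afp, a marker of hepatoma cells, with 4149, 4316 and 2801 counts in control replicates 1, 2 and 3 and 2000, 3495 and 2477 counts in luteolin replicates 1, 2 and 3. Transcripts of Hnf4a, the hepatocyte transcription factor, were at 0 in control replicates 1 and 3 and luteolin replicate 3 and at 20 counts or fewer elsewhere. With a count of 0, a true level of up to 3 counts cannot be told from none, or of up to 12 if 1 read pair stands for 4 units, and this covers counting error only.

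One library stood apart. A list of 11 keratinocyte markers summed to 10800 CPM in luteolin replicate 2, against 595 CPM in luteolin replicate 1, 163 CPM in luteolin replicate 3 and 192 to 203 CPM in the control libraries. CPM are counts scaled to a common normalized library total. Dsp, a desmosomal gene that is not particular to keratinocytes, made up most of the sum in the control libraries (172, 180 and 186 CPM) and in luteolin replicate 3 (142 CPM), and Krt14 had the highest level in luteolin replicate 2. Of the 11 markers, 5 were at 0 in all control libraries, namely Krt14, Krt5, Krt1, Dsg1a and Lor. Keratinocyte transcripts were not confined to luteolin replicate 2, since Krt14 was at 157 CPM in luteolin replicate 1, 2440 CPM in luteolin replicate 2 and 4.33 CPM in luteolin replicate 3. The counts over the 10 genes and over the other pathway genes are therefore also given without luteolin replicate 2. So are the log2 fold changes of the 10 genes and the ratios of the marker sums. Counts by role and levels per kilobase are given with all libraries.

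Casp1 and Casp4 are neighbouring genes on mouse chromosome 9, and both were higher in every luteolin library than in any control library. The 250 bases before the start of each are shown because the pair moved together. They were taken from RefSeq on GRCm38.p6, whereas the submitters' processing notes name mm39 and the rat build rn6 without saying which step used them, so these coordinates belong to the promoter table only. RefSeq windows were at hand for 9 of the 10 genes, all but Gsdmd, which was therefore not searched for motifs. Capitals mark matches to an NF-κB element, written as GGG and TTCC with 3 bases of any kind between them, on either strand. The windows lie at chr9:5308599-5308848 for Casp4 and chr9:5298267-5298516 for Casp1, both on the plus strand.
Casp4: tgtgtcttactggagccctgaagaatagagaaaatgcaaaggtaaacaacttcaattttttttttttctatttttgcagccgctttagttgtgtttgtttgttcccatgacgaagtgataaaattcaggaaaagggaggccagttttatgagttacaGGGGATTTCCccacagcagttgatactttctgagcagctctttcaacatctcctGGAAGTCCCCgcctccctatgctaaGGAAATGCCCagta
Casp1: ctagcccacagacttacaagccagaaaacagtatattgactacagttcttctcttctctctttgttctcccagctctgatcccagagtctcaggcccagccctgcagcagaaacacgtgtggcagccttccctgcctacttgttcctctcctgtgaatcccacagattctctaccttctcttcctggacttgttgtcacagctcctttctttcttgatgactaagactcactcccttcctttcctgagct

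Casp4 has 2 listed starts with overlapping windows, and the one shown held 3 such matches, which began 93, 39 and 14 bases before the start of the gene, and the Casp1 window held 0. Among all 32851 windows of this length, counted on both strands, 4.65% held at least 1 match and 0.0183%, or 6 windows, held 3 or more. Both Casp4 windows, which share the same 3 matches, are among these 6. The other motifs searched, also on both strands, were a pair of GAAA copies with 2 bases between them (interferon-stimulated response element, in 2.98% of windows), TTCNNNGAA, where N is any base (STAT element, 7.02%), and GAGGAAGT (PU.1 element, 2.44%). A PU.1 match lay in the windows of Aim2 and Pycard and a STAT match in 1 of the 2 windows of Nod1. No match of the 4 motifs was found in the windows of Nlrp3, Nlrc4, Naip5, Nod2 and Casp1. These are matches of letters and not measured binding.

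Gsdmd, Casp1, Casp4 and Nod2 were higher in the luteolin group at the threshold used in the study, and none of the 10 genes passed it as lower. That threshold was a p under 0.05 before adjustment and a change of over 2-fold, read here from edgeR's quasi-likelihood test. At this threshold 4 of the 10 genes were higher, where 11.3% of all tested genes were higher, and 0 were lower, where 1.52% of all tested genes were lower. At an adjusted p under 0.05 in the main edgeR fit, 0 of the 10 genes passed, against 1.34% of all tested genes higher and 0.187% lower. An unadjusted p under 0.05 was reached by 5 of the 10 and by 20.5% of all tested genes, and the adjusted count was 4 with DESeq2 (8.83% of all genes it tested were higher) and 7 with limma's voom (12.6%). In 6 of the 10 genes every luteolin library lay above every control library, a pattern found in 15.9% of all tested genes, and in 0 it lay below, found in 12.8%. The median log2 fold change was 1.05 for the 10 genes and -0.01 for all tested genes. All 10 values were above 0, as were 49.3% of those of all tested genes. Without luteolin replicate 2 the same 4 genes passed the study's threshold, against 7.52% of all genes then tested. In whole tumour tissue, more cells of a type and more RNA per cell cannot be told apart.

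**Figure D1:**
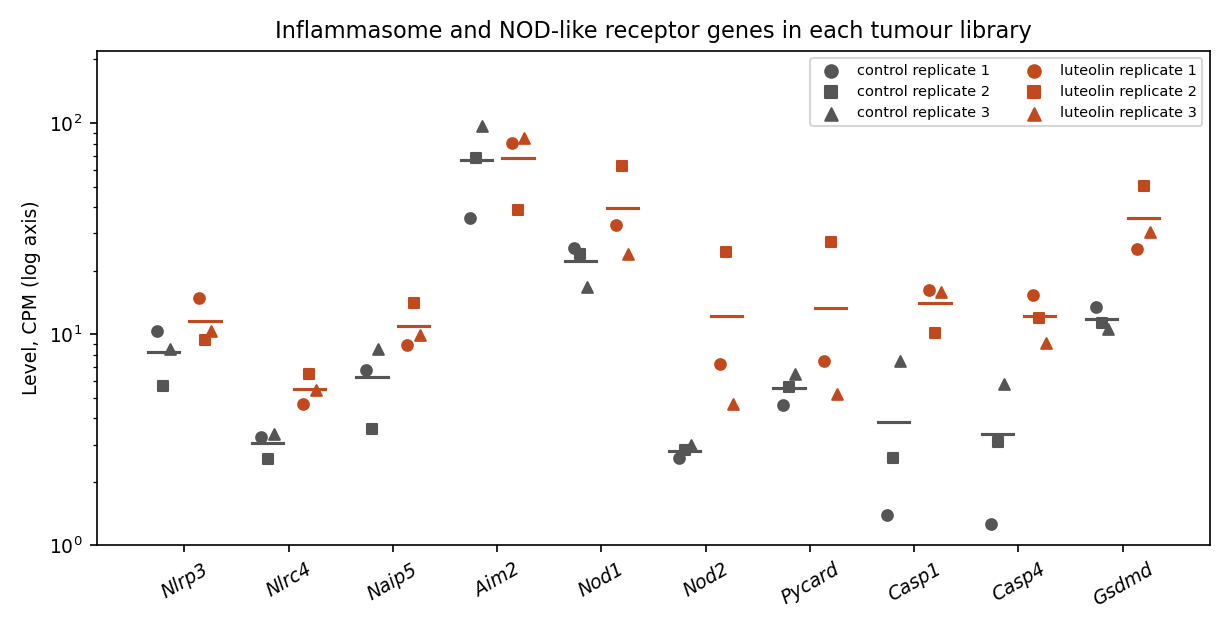
Levels of the 10 genes in CPM on a log axis, with 1 point for each library and a line at the mean of each group of 3. Luteolin points lie above all control points for Nlrc4, Naip5, Nod2, Casp1, Casp4 and Gsdmd, and luteolin replicate 2 (orange squares) is far above the other luteolin libraries for Nod2 and Pycard.

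Gsdmd, which encodes the pore-forming substrate of both caspases, gave the smallest p of the 10 genes. Its level was 13.4, 11.3 and 10.6 CPM in control replicates 1, 2 and 3 and 25.4, 50.3 and 30.4 CPM in luteolin replicates 1, 2 and 3. The groups did not overlap, and luteolin replicate 2 was the highest. Means were 35.4 ± 13.2 CPM with luteolin and 11.7 ± 1.47 CPM with vehicle (SD, n = 3 each), a 3.01-fold difference of means. On the log2 scale the fold change was 1.59 (standard error, SE, 0.29, adjusted p = 0.0552 in edgeR), past the study's threshold and just outside an adjusted p of 0.05. It was 1.27 without luteolin replicate 2, with an adjusted p of 0.0389 in edgeR.

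Casp1, the gene of the caspase that matures interleukin-1β, had 1.39, 2.59 and 7.49 CPM in control replicates 1, 2 and 3 and 16.1, 10.1 and 15.8 CPM in luteolin replicates 1, 2 and 3. The controls spread widely, with a low replicate 1 and a high replicate 3, yet stayed below each luteolin library. Here luteolin replicate 2 was the lowest of its group. Casp1 had a log2 fold change of 1.87 (SE 0.62, adjusted p = 0.169 in edgeR) and passed the study's threshold. It no longer passed without control replicate 2 (log2 fold change 1.65), luteolin replicate 1 (1.76) or luteolin replicate 3 (1.75). It passed with 1.46 without control replicate 1, with 2.81 without control replicate 3 and with 2.09 without luteolin replicate 2.

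Casp4, the sensor of cytosolic lipopolysaccharide, followed the same order of controls. Its level was 1.26, 3.07 and 5.82 CPM in control replicates 1, 2 and 3 and 15.4, 11.9 and 9.11 CPM in luteolin replicates 1, 2 and 3. The groups again did not overlap, and the mean was 3.59-fold higher with luteolin. Casp4 passed the study's threshold at a log2 fold change of 1.84 (SE 0.56, adjusted p = 0.145 in edgeR). Without control replicate 2 it did not pass, at 1.77, and without luteolin replicate 2 it passed, at 1.88. Its value was 1.43 without control replicate 1 and 2.48 without control replicate 3.

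Both caspase genes are poor in G and C, with 41.1% for Casp1 and 42.0% for Casp4, against a median of 50.5% over the tested genes. Libraries differed in how level went with GC content. Across genes, which are not independent replicates, Spearman's rho between GC content and the deviation of a library from the mean was 0.43, -0.17 and -0.53 in the controls and -0.18, 0.44 and -0.37 in the luteolin libraries, each in the order of their numbers. With offsets for GC content and transcript length in the same edgeR test, the log2 fold changes were 2.14 for Casp1 (adjusted p = 0.0373), 2.12 for Casp4 (adjusted p = 0.0426) and 1.48 for Gsdmd (adjusted p = 0.0132), so that 3 of the 10 genes passed an adjusted p of 0.05, against 4.99% of all genes in that fit.

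Nod2, a receptor for muramyl dipeptide from bacterial walls, had 2.60, 2.83 and 2.99 CPM in control replicates 1, 2 and 3, a narrow range. The luteolin libraries had 7.23, 24.6 and 4.66 CPM in replicates 1, 2 and 3. All lay above the controls, but replicate 2 lay far above the others. Nod2 passed the study's threshold with a log2 fold change of 2.12 (SE 0.63, adjusted p = 0.139 in edgeR). It also passed without luteolin replicate 2, where the value was 1.10 (SE 0.32), and with limma's voom, where it was 1.31.

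Nod1, which detects another peptidoglycan fragment, had 25.7, 24.1 and 16.8 CPM in control replicates 1, 2 and 3 and 33.0, 62.4 and 24.0 CPM in luteolin replicates 1, 2 and 3. The groups overlapped, since luteolin replicate 3 lay among the controls. Its log2 fold change of 0.84 (SE 0.37, adjusted p = 0.264 in edgeR) did not pass the threshold. It was 0.38 without luteolin replicate 2, and without luteolin replicate 3 it was 1.04 and passed the study's threshold. With limma's voom it was 0.45 and did not pass.

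Pycard, the gene of the adaptor ASC that links sensors to caspase-1, was high in a single library. It had 4.62, 5.62 and 6.48 CPM in control replicates 1, 2 and 3 and 7.43, 27.2 and 5.23 CPM in luteolin replicates 1, 2 and 3. Luteolin replicate 3 lay within the control range. A log2 fold change of 1.25 (SE 0.62, adjusted p = 0.316 in edgeR) did not pass the threshold, and it was 0.20 without luteolin replicate 2. Without luteolin replicate 3 it was 1.56 and passed, as it did with DESeq2 at 1.22, and with limma's voom it was 0.39 and did not pass.

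Among the sensors, 0 of 4 genes passed the study's threshold, beside 11.3% of all tested genes. Nlrc4, which forms an inflammasome with NAIP proteins on bacterial flagellin and secretion system proteins, had 3.26, 2.55 and 3.38 CPM in control replicates 1, 2 and 3 and 4.67, 6.50 and 5.41 CPM in luteolin replicates 1, 2 and 3. The groups did not overlap, and the log2 fold change of 0.85 (SE 0.32, adjusted p = 0.206 in edgeR) was below 2-fold. It ranged from 0.71 to 0.96 with each library left out in turn and was 0.74 without luteolin replicate 2. With limma's voom it was 0.86, still below 2-fold, with an adjusted p of 0.0319.

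Naip5, the flagellin receptor upstream of NLRC4, had 6.74, 3.55 and 8.50 CPM in control replicates 1, 2 and 3 and 8.87, 14.0 and 9.86 CPM in luteolin replicates 1, 2 and 3. The lowest luteolin library was only slightly above the highest control. Its log2 fold change of 0.80 (SE 0.39, adjusted p = 0.306 in edgeR) did not pass the threshold and was 0.60 without luteolin replicate 2. Without control replicate 3 it was 1.08 and passed, and with limma's voom it was 1.14 and passed (adjusted p = 0.0276). Naip5 lies between Naip2 and Naip6, close copies that may share reads, which makes its level uncertain. Of these copies, Naip2 had a log2 fold change of 0.91 and Naip6 of -0.20, both chosen after their values were seen, and neither passed the threshold.

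Nlrp3, the sensor of potassium efflux and many danger signals, had 10.4, 5.70 and 8.50 CPM in control replicates 1, 2 and 3 and 14.9, 9.41 and 10.3 CPM in luteolin replicates 1, 2 and 3. The groups overlapped. A log2 fold change of 0.49 (SE 0.33, adjusted p = 0.461 in edgeR) did not pass the threshold, and it was 0.63 without luteolin replicate 2. With limma's voom and sample quality weights it was 1.08 and passed both the study's threshold and an adjusted p of 0.05 (adjusted p = 0.0215).

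Aim2, the receptor for double-stranded DNA in the cytosol, had the highest level per length of the 10 genes, and its groups overlapped widely. It had 35.4, 68.0 and 96.7 CPM in control replicates 1, 2 and 3 and 80.4, 38.6 and 85.0 CPM in luteolin replicates 1, 2 and 3. The range within each group was far wider than the difference of the means, 68.0 ± 25.6 against 66.7 ± 30.7 CPM (SD, n = 3 each). Its log2 fold change of 0.03 (SE 0.43, adjusted p = 0.983 in edgeR) turned sign with the library left out, from -0.28 without control replicate 1 to 0.39 without control replicate 3, and it was 0.33 without luteolin replicate 2.

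**Figure D2:**
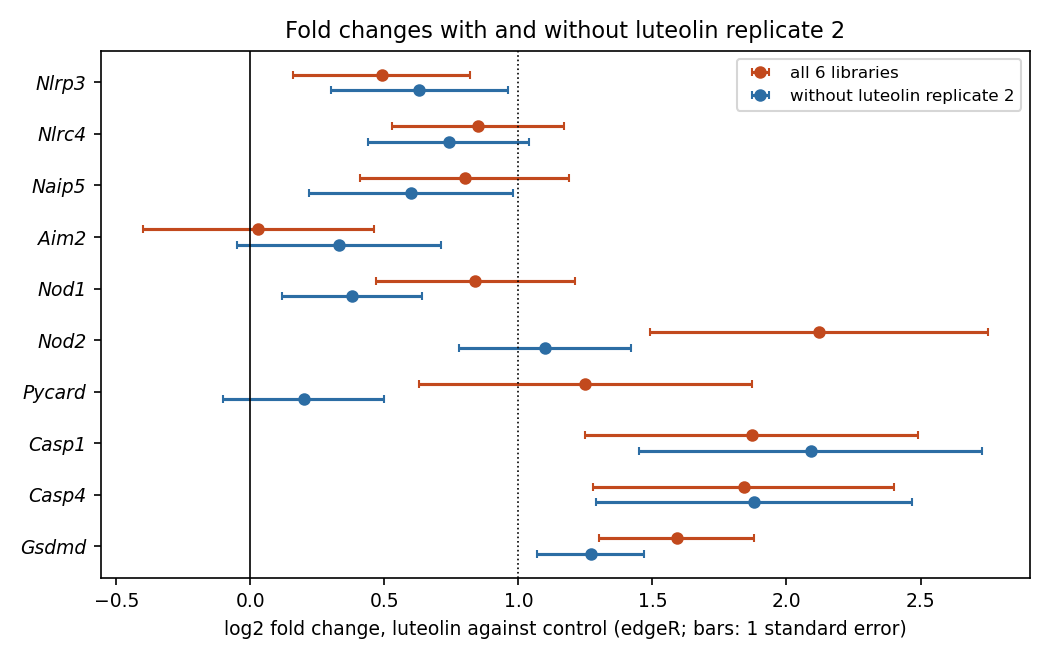
Log2 fold changes of the 10 genes, luteolin against control, from edgeR with all 6 libraries (orange) and without luteolin replicate 2 (blue), with bars of 1 standard error and a dotted line at 2-fold. Casp1, Casp4, Gsdmd and Nod2 stay above 2-fold in both fits, Nod2 with a move from 2.12 to 1.10, while Pycard moves from 1.25 to 0.20.

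Per kilobase of the principal GENCODE M21 transcript, the order of the mean control levels was Aim2 with 23.5 CPM per kb, Gsdmd with 6.55, Nod1 with 5.14, Casp1 with 2.55, Casp4 with 2.36, Nlrp3 with 2.04, Pycard with 1.47, Naip5 with 1.20, Nlrc4 with 0.648 and Nod2 with 0.603 CPM per kb. The mean luteolin levels on this scale were led by Aim2 with 23.9 and Gsdmd with 19.7 CPM per kb, followed by Casp1 with 9.35, Nod1 with 9.22 and Casp4 with 8.47 CPM per kb. Below Aim2, the control libraries of genes next to each other in this order overlapped on this scale, among them those of Casp1, Casp4 and Nlrp3. The order of such neighbours is therefore not resolved. With luteolin, the SD was 25.6 CPM on a mean of 68.0 CPM for Aim2 and 20.1 on 39.8 CPM for Nod1. The mean of Nod1 was 28.5 CPM without luteolin replicate 2. The luteolin order of Aim2 and Gsdmd, and that of Casp1, Nod1 and Casp4, is therefore not resolved either. Pycard depends on its listed transcript of 3800 bases.

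Summed markers of macrophages, neutrophils and T cells were higher in every luteolin library, while those of dendritic and B cells overlapped between the groups. Summed over 10 macrophage and monocyte markers, led by Lyz2, the level was 1710, 1500 and 1850 CPM in control replicates 1, 2 and 3 and 1970, 2500 and 2600 CPM in luteolin replicates 1, 2 and 3. All luteolin libraries were higher, by 1.39-fold in the mean and 1.35-fold without luteolin replicate 2 (exact two-sided permutation test, p = 0.1, the smallest that 3 against 3 allow). Most of this sum is Lyz2, with a log2 fold change of 0.23, and the median over the 10 markers was 0.82. Of the 10 markers, 4 were higher at the study's threshold (Ptprc, Cd68, Ly6c2 and Fcgr1), beside 11.3% of all tested genes. The counts for the lists below also compare to that share. Of the 10 markers, 0 were at 0 in a whole group. Ptprc is expressed by leukocytes of all kinds and Itgam also by neutrophils, so neither is particular to macrophages and monocytes.

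The 9 neutrophil markers, led by Csf3r, summed to 19, 19.1 and 22.4 CPM in control replicates 1, 2 and 3 and to 169, 182 and 85.9 CPM in luteolin replicates 1, 2 and 3, a 7.23-fold higher mean and 6.33-fold without luteolin replicate 2 (exact permutation p = 0.1). Of the 8 markers tested, 6 passed the study's threshold, among them Ltf, which passed the filter only through the luteolin libraries. Much of this sum is Csf3r, with a mean of 14.3 CPM in the controls and 67.9 CPM with luteolin. The median log2 fold change over the 8 tested markers was 3.26. Camp and Ltf were at 0 in all controls, and Ly6g, a defining surface marker of mouse neutrophils, stayed between 0 and 36 counts in every library. Ly6g and Retnlg did not pass the threshold, and the groups of Retnlg overlapped (log2 fold change 0.43).

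The 8 T cell markers in the table, led by Cd4, summed to between 10.9 and 13.4 CPM in the controls and to 41.8, 72.7 and 45.7 CPM in luteolin replicates 1, 2 and 3 (4.32-fold, or 3.54-fold without luteolin replicate 2, exact permutation p = 0.1), and all 8 passed the study's threshold. The 7 dendritic cell markers, led by Zbtb46, ranged from 36.8 to 44.6 CPM in the controls and from 36.1 to 76.9 CPM in the luteolin libraries, with overlap (1.43-fold, or 1.18-fold without luteolin replicate 2, exact permutation p = 0.4) and with 5 of 7 at the study's threshold. Much of this sum is Zbtb46, with a mean of 30.5 CPM in the controls and 24.4 CPM with luteolin, and the median log2 fold change over the 7 markers was 1.77. The 5 B cell markers, led by Cd22, ranged from 9.95 to 12.6 and from 11.4 to 30.9 CPM (2.06-fold, or 1.86-fold without luteolin replicate 2, exact permutation p = 0.3), with 1 at the threshold. Most of that sum is Cd22, with a log2 fold change of 0.75, and the median over the 5 markers was 1.51. The 11 hepatocyte and hepatoma markers in the table, led by Trf, were lower in every luteolin library, at 542, 398 and 576 CPM against 681, 677 and 604 CPM in control replicates 1, 2 and 3 (exact permutation p = 0.1), and the ratio of means was 0.772, or 0.855 without luteolin replicate 2. The median log2 fold change of the 10 of these markers that were tested had the other sign, 0.67, and 1 of them, Gpc3, was higher at the study's threshold. The keratinocyte sum, most of which is Dsp in the control libraries, was 1.93-fold higher without that library and gave p = 0.4 in the exact permutation test with all libraries, with 8 of 10 tested markers at the study's threshold. In 7 of these 10 every luteolin library lay above every control library. Krt14, Krt5, Krt1 and Dsg1a, at 0 in all controls, passed the filter only through the luteolin libraries. These keratinocyte counts are therefore not set against the share of all tested genes. Without luteolin replicate 2 the mean luteolin level was 80.6 CPM for Krt14 and 27.6 CPM for Krt5, both at 0 in the controls, and 32.7 CPM against 3.8 CPM for Krt10. Krt10 had 61.1 CPM in luteolin replicate 1 and 4.26 CPM in luteolin replicate 3, the latter within the control range of 3.23 to 4.28 CPM. The part of these cell types in the levels of the 10 genes was not tested.

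**Figure D3:**
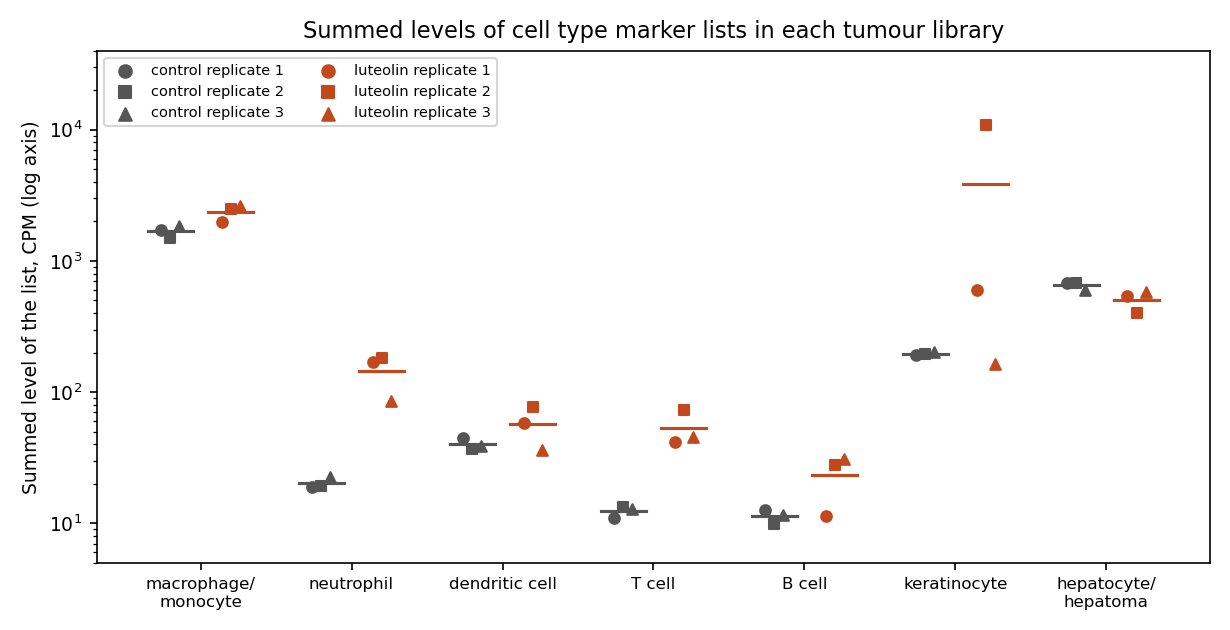
Summed levels in CPM, on a log axis, of 7 lists of cell type markers, with 1 point for each library and a line at the mean of each group. The macrophage, neutrophil and T cell sums are higher in all 3 luteolin libraries, and the keratinocyte sum reaches 10800 CPM in luteolin replicate 2.

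Set against the macrophage markers, the 10 genes differed less between the groups. That list includes Ptprc and Itgam, which are not particular to macrophages. Their mean log2 CPM minus that of the 10 macrophage markers was -3.19, -3.16 and -3.06 in the controls and -2.85, -2.67 and -3.13 in the luteolin libraries, each in the order of their numbers, and the groups overlapped. The difference between the groups was 0.25 on the log2 scale and ranged from 0.15 without luteolin replicate 2 to 0.38 without luteolin replicate 3, beside 1.14 for the 10 genes and 0.89 for the macrophage markers on their own. Gene by gene on this relative scale, Casp4 was the gene whose luteolin libraries all lay above the controls, with a difference of 1.17. The others overlapped. The share of all tested genes with that pattern on this scale was not computed, so Casp4 cannot be set against it. Casp1 differed by 1.29 and overlapped only through luteolin replicate 2, at -3.63 against -3.33 in control replicate 3. Nod2 differed by 0.85 and Gsdmd by 0.65, while Nlrp3 had -0.38, Aim2 -0.83, Nod1 -0.14 and Pycard -0.01. Without luteolin replicate 2 these differences were 1.23 for Casp4, 1.57 for Casp1, 0.22 for Nod2, 0.42 for Gsdmd, -0.19 for Nlrp3, -0.40 for Aim2, -0.46 for Nod1 and -0.65 for Pycard.

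The products and partners of the complexes were read from a list of 68 other pathway genes, of which 67 were in the table and 61 were tested. This list, too, was chosen with earlier results of these data known. At the study's threshold 18 of the 61 were higher and 0 were lower, beside 11.3% and 1.52% of all tested genes. At an adjusted p under 0.05 in edgeR 8 were higher and 0 were lower, beside 1.34% and 0.187% of all tested genes. Their median log2 fold change was 0.54, beside -0.01 for all tested genes, and 44 of the 61 values were above 0. In 24 genes every luteolin library lay above every control library (15.9% of all tested genes), and in 2, Card6 and Txnip, every one lay below (12.8%). Without luteolin replicate 2, 15 of these genes were higher at the study's threshold, beside 7.52% of all genes then tested, and 10 at an adjusted p under 0.05 in edgeR, beside 1.82%. The counts by role that follow are to be read against the same 11.3% of all tested genes. The adjusted count was 0 without any 1 of the control libraries or without luteolin replicate 1, settings in which 0 genes of the whole table passed.

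Of the effectors, 3 of 10 tested genes were higher at the study's threshold, and of the cytokines that caspase-1 matures Il1b rose while Il18 did not pass the test. Il1b had 14.5, 16.8 and 11.1 CPM in control replicates 1, 2 and 3 and 165, 122 and 57.5 CPM in luteolin replicates 1, 2 and 3, without overlap. Its log2 fold change was 3.02 (SE 0.41, adjusted p = 0.0331 in edgeR) and 2.99 without luteolin replicate 2. Il18 had 1.73, 1.30 and 3.78 CPM in the controls and 1.29, 2.96 and 1.17 CPM in the luteolin libraries. These overlapped, and the log2 fold change was -0.33 (SE 0.60, adjusted p = 0.816 in edgeR), with a value of 0.25 without control replicate 3 and of -0.86 without luteolin replicate 2.

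Of the other sensors and NOD-like receptor genes, 5 of 13 tested genes were higher at the study's threshold. Of these 5, Nlrp10 and Ciita did not pass without luteolin replicate 2. Ciita, named after its value was seen, had a log2 fold change of 1.14, and of 0.77 without that library. Nlrc5, a transactivator of major histocompatibility complex class I genes, had 21.7, 22.1 and 24.4 CPM in control replicates 1, 2 and 3 and 75.0, 172 and 73.2 CPM in luteolin replicates 1, 2 and 3 (log2 fold change 2.23, SE 0.36, adjusted p = 0.0437 in edgeR). Zbp1, a sensor of Z-form nucleic acids, rose by 2.07 on the log2 scale (SE 0.34, adjusted p = 0.0437 in edgeR). Neither gene's groups overlapped, and the values were 1.72 and 1.70 without luteolin replicate 2. Among the sensors outside the naming rule, looked at after the values were seen, were Mefv, which encodes pyrin (log2 fold change 1.77, at the study's threshold), and Nlrp10, with 13.8 CPM in luteolin replicate 2 and 0.371 to 0.849 CPM in the other libraries. Nlrp10 passed with a log2 fold change of 3.62 and did not pass without luteolin replicate 2, at 0.80.

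In NOD signalling, 1 of 13 tested genes was higher at the study's threshold, a share no larger than the 11.3% of all tested genes. Slc15a3, a transporter that brings peptidoglycan fragments out of endosomes, had 19.3, 18.2 and 18.5 CPM in control replicates 1, 2 and 3 and 50.8, 54.8 and 46.3 CPM in luteolin replicates 1, 2 and 3. Both groups were tight and well apart (log2 fold change 1.44, SE 0.15, adjusted p = 0.0309 in edgeR, and 1.40 without luteolin replicate 2). Ripk2, the kinase of both NOD receptors and named here after its value was seen, had a log2 fold change of 0.20 (adjusted p = 0.755 in edgeR). Card6, whose product contains a caspase recruitment domain, had 60.8, 55.9 and 60.9 CPM in the controls and 37.7, 29.7 and 35.2 CPM in luteolin replicates 1, 2 and 3. The groups did not overlap, and the log2 fold change of -0.79 (SE 0.16, adjusted p = 0.0653 in edgeR) was under 2-fold, and it was -0.68 without luteolin replicate 2.

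Of the genes for priming and activation, 6 of 17 tested genes were higher at the study's threshold. Of these 6, Tlr2 and Irf8 did not pass without luteolin replicate 2, at log2 fold changes of 0.88 and 0.99. Gbp5 and Gbp3, interferon-induced GTPases of the guanylate-binding protein family, rose by 1.97 (SE 0.28, adjusted p = 0.0347 in edgeR) and 1.26 (SE 0.17, adjusted p = 0.0331 in edgeR) on the log2 scale, and by 1.84 and 1.22 without luteolin replicate 2. Gbp5 had 10.1, 17.7 and 15.4 CPM in control replicates 1, 2 and 3 and 58.8, 67.0 and 42.7 CPM in luteolin replicates 1, 2 and 3.

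Among inhibitors, 3 of 8 tested genes were higher at the study's threshold and 0 were lower. Il1rn, the antagonist of the interleukin-1 receptor, had 10.8, 20.6 and 19.1 CPM in control replicates 1, 2 and 3 and 72.4, 57.2 and 55.3 CPM in luteolin replicates 1, 2 and 3 (log2 fold change 1.87, SE 0.28, adjusted p = 0.0393 in edgeR). Tnfaip3, which encodes the ubiquitin-editing enzyme A20, rose by 1.04 on the log2 scale (SE 0.16, adjusted p = 0.0393 in edgeR), and the control libraries, from 21.5 to 23.4 CPM, lay well below the luteolin libraries, from 42.3 to 50.2 CPM. Without luteolin replicate 2 the values were 1.94 for Il1rn and 1.00 for Tnfaip3.

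**Figure D4:**
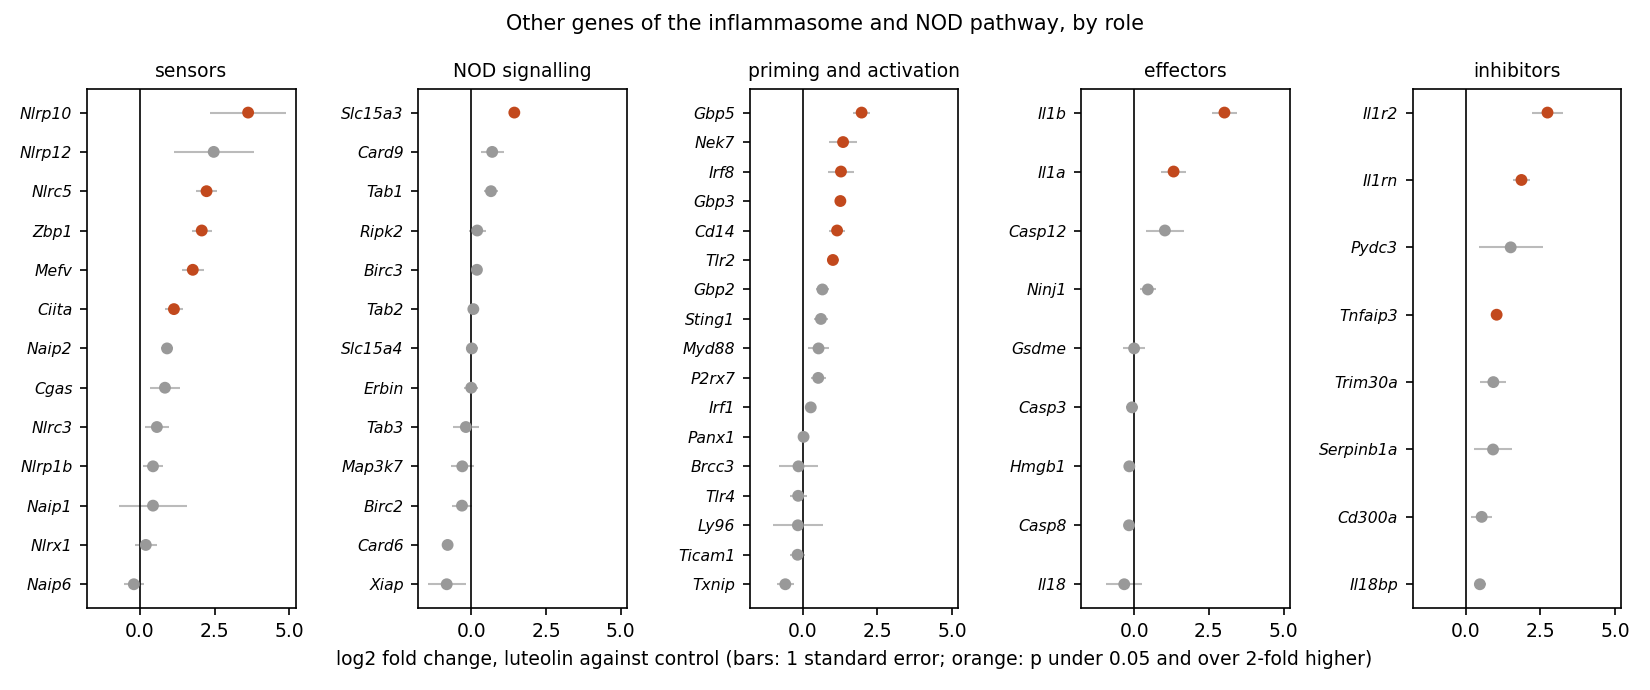
Log2 fold changes of 60 of the 61 other pathway genes tested, grouped by role, luteolin against control, with bars of 1 standard error. Orange points are the 17 genes drawn that were higher at the study's threshold, led by Nlrp10 (3.62, but 0.80 and no longer past the threshold without luteolin replicate 2), Il1b and Il1r2, and the 13 NOD signalling genes, with a median of 0.02, include 1 of them.

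The profile of the 10 genes over the 6 libraries, as the mean of their log2 CPM centred on each gene's own mean, was -0.80, -0.70 and -0.21 in the controls and 0.51, 0.90 and 0.29 in the luteolin libraries, each in the order of their numbers. Of the tested genes with a mean of at least 1 CPM, the 5 closest to it by root mean square difference were Cacna1c, Tssc4, Tmem229b, Tlr2 and Gfra1, at 0.083, 0.094, 0.095, 0.104 and 0.107 on the log2 scale. The 10 genes themselves lay farther from their mean, from 0.26 for Nlrc4 to 0.84 for Casp1. These likenesses rest on 6 libraries that share the difference between the groups.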

How the data were processed

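Whole tumours of 3 control and 3 luteolin libraries were sequenced by RNA-seq. The authors deposited whole-number estimated counts per gene symbol, unscaled between libraries. The labels' processing fields name bcl2fastq 2.0, HISAT2, StringTie, DESeq2 and the builds rn6 and mm39. Annotation and strandedness are not given in the sources used here, so antisense reads could not be separated. Low values (1 to 40) were multiples of 4 in 44.8% of cases, so 1 read pair may count as 4 units. Kits differ between the labels (RNeasy, SMARTer) and the methods (Trizol, TruSeq).

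Counts were analysed in R 4.3.3 with edgeR 4.0.16 (TMM, filterByExpr, quasi-likelihood test, no covariates), with two-sided p values adjusted by the Benjamini-Hochberg method over 14963 genes. Log2 CPM values have a prior count of 2. Alternatives were DESeq2 1.42.0, limma 3.58.1 voom with quality weights, other normalizations and filters, a replicate block, division by 4, GC and length offsets (GENCODE M21) and each library left out. Marker sums were compared by exact permutation. The procedure was tested on simulated data. All 10 genes are named, as are for each pathway role the 2 with the smallest p, Il1b, Il18, the most abundant gene of each marker list and the 5 most similar genes. The genes, lists and tests were chosen with earlier results of these data known. One gene that the naming rule selected is not reported here.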

Additional observations from a re-analysis of the deposited data

How the results depend on the processing

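The direction of the log2 fold change was the same under all 15 alternatives for 9 of the 10 genes. Aim2, near 0 throughout, was -0.28, -0.11 and -0.19 without control replicate 1, luteolin replicate 1 and luteolin replicate 3, and at most 0.39 (without control replicate 3). The count of the 10 genes higher at the study's threshold was 4, ranged from 4 to 6 over the other settings and from 2 to 5 with each library left out (2, Nod2 and Gsdmd, without control replicate 2), where 7.52% to 13.6% of all genes were higher. The count at an adjusted p under 0.05 was 0 in the main edgeR fit. It was 4 with DESeq2 (8.83% of all genes tested were higher), 7 with limma's voom (12.6%), 1 with at least 10 counts in every library (2.54%), 1 with values divided by 4 (2.41%) and 3 with GC content and length offsets (4.99%), and it ranged from 0 to 1 with each library left out (1 without luteolin replicate 2, 1.82%). For the other pathway genes the adjusted count was 8, against 20 with DESeq2, 22 with voom and 18 with GC content and length offsets, and it ranged from 0 (without any 1 control or luteolin replicate 1) to 10 (without luteolin replicate 2) with each library left out. Il18 was 0.25 without control replicate 3 and otherwise negative, down to -0.86 with each library left out in turn. Adjusted p values of Gsdmd ranged from 2.59e-05 to 0.247, those of Casp1 from 0.00299 to 0.434, those of Casp4 from 0.00634 to 0.409 and those of Nod2 from 0.00763 to 0.383. Causes were not tested.

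Replicate numbers showed no sign of pairing the libraries, although 3 libraries in each group are too few to exclude it. Deviations from the group means correlated at -0.20, -0.09 and 0.06 between same-numbered libraries and at -0.12 to 0.20 between the others. With a replicate block 34 genes of the whole table were higher and 1 was lower at an adjusted p under 0.05, against 200 and 28 without it. The block left 4 of the 10 genes at the study's threshold (8.64% of all genes were higher) and 1 other pathway gene at an adjusted p under 0.05 (0.227%).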

Other observations

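The 8 gasdermin genes other than Gsdmd were looked at after their values were seen and are given without a test, and 5 of them, Gsdmc and Gsdma included, did not pass the filter on low counts. Gsdmc was at 0 in each control and had 432, 4634 and 4 counts in the luteolin libraries, the last of which cannot be told from 0 if 1 read pair stands for 4 units. Gsdma had 4, 4 and 0 counts in the controls and 195, 3829 and 0 counts in the luteolin libraries, each in the order of their numbers. Both are known from epithelia, and luteolin replicate 2, with most of their counts, also had the highest keratinocyte sum, whose part in these values was not tested. Gsdma3 was at 394 counts in luteolin replicate 2 and at 0 in the other 5 libraries. Gsdmc4 had 14.7 ± 1.95 CPM in the control group and 13.7 ± 2.68 CPM in the luteolin group, and Gsdme, a substrate of caspase-3, had 5.46 ± 1.32 and 5.46 ± 1.64 CPM (SD, n = 3 each).

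The PYHIN genes, relatives of Aim2, were also looked at after the values were seen. Of 11 such genes 10 were tested, and 2 of these had every luteolin library above every control library, a share close to the 15.9% of all tested genes with that pattern. Ifi205 had 1.10, 3.18 and 4.67 CPM in control replicates 1, 2 and 3 and 17.0, 12.7 and 6.60 CPM in luteolin replicates 1, 2 and 3. Ifi209 had 2.41 ± 0.950 CPM in the control group and 4.83 ± 0.534 CPM in the luteolin group (SD, n = 3 each). Ifi203, an abundant member, had 9.36, 21.4 and 42.9 CPM in control replicates 1, 2 and 3 and 31.0, 17.5 and 34.3 CPM in luteolin replicates 1, 2 and 3, an overlap like that of Aim2.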
